A study of Rattus norvegicus with 12 samples.

Results

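The genes described here code for the chains of collagens, laminins and integrins. They were taken as every non-control probe of the array whose accession gave a rat symbol beginning with Col and a number, Lama, Lamb or Lamc and a number, or Itga or Itgb, and the integrin Itgam was left out because it also marks microglia. Of 87 rat genes with such symbols, 45 had a named probe, among 15154 genes named on the array: 18 collagens, 7 laminins and 20 genes with integrin names. The other 42 were not analysed here, and they include Col4a2, Lamb1, Itgav and Itga6. Of the 20 integrin names, 4 belong to proteins that are not integrin chains (Itgb1bp1, Itgb1bp2, Itgb3bp and Itgbl1). For the 13 members with several probes the brightest on average was used.

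Collagens are triple helices of alpha chains, and they form the fibrils of connective tissue (types I, III and V) or the networks of basement membranes and vessel walls (types IV and VIII). Laminins are cross-shaped trimers of an alpha, a beta and a gamma chain that polymerise into the basement membrane, where collagen IV stabilises the sheet. Integrins are receptors made of an alpha and a beta chain that bind these proteins from the cell surface and connect them to actin. In brain tissue the fibrillar and basement membrane chains are known mainly from the vessel wall and the meninges, while neurons and astrocytes carry integrins of the beta-1 group.

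Total RNA came from primary hippocampal neurons of Wistar rat embryos, at E18 by the labels, grown for 14 to 15 days. Cultures spent 2 h in a glucose-free buffer in an anaerobic chamber (oxygen-glucose deprivation, OGD), or the same time in a buffer with glucose under air and CO2 (Ctrl), and all then recovered in conditioned medium for 7 h or 24 h. Each of the 4 groups had 3 arrays from separate cultures, and every slide carried a Ctrl and an OGD array of 1 time and replicate number. Such cultures also hold glia, so a value is a sum over cell types, and fewer cells of a type and less RNA per cell cannot be told apart. All 17 neuron markers listed were well above background on all 12 arrays. The median intensity of an array ran from 402 to 660 in the Ctrl groups and from 131 to 546 in the OGD groups, with the lowest on the OGD array of replicate 1 at 24 h, and between 78.3% and 87.1% of spots were well above background. Array values below are log2 intensities minus the median of the array, so that 0 is the level of its median probe, and a change is OGD minus Ctrl on this scale. Levels of different genes cannot be compared, because probes differ in brightness.

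A gene was called when its unadjusted limma p was under 0.05 and its fold at least 2, the thresholds of the study. After Benjamini-Hochberg adjustment over 30367 probes none on the array passed 0.05, and the lowest adjusted limma p was 0.117 at 7 h and 0.209 at 24 h, while 3590 and 4160 probes had an unadjusted p under 0.05. The calls below therefore rest on unadjusted limma p-values, the p-values printed are adjusted ones, and counts of called members are given beside the share of all named genes called by the same rule. A total of 32 members were well above background on all 12 arrays, and 3 (Col4a4, Itgal and Itgb2) were not well above it on any array.

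At 24 h the set as a whole lay above the rest of the array. The median change of the 45 members was 0.56, and 37 were above 0, where the median of all named genes was -0.03 and 46.5% of them were above 0. At 7 h the median of the members was 0.15, with 27 above 0, against -0.11 and 40.1% for all named genes. By family, the collagens had a median of 0.16 at 7 h and 0.89 at 24 h, the laminins 0.19 and 0.61, and the integrins 0.12 and 0.30. Without the Ctrl array of replicate 1 the collagen median at 24 h was 0.48, and with the slides of replicates 2 and 3 alone it was 0.50 and that of the laminins 0.17. These signs hold for centring on the array's median, on its 75th percentile and for quantile normalisation, but with scaling to the spike-in control RNA the median of all genes itself was -0.91 and -1.05, and the medians of the 3 families at 24 h turned to -0.13, -0.42 and -0.72. Relative to the median of all genes the families stood at 0.92, 0.63 and 0.33 at 24 h, values that a change of 1 constant per array cannot move. The integrins stood at 0.18 with quantile normalisation, and the collagens at 0.52 with normexp background correction and at 0.47 without the Ctrl array of replicate 1.

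Col8a1, Col18a1 and Itga5, 3 of the 45 members, were called higher at 24 h and none lower, beside 2.74% of all named genes called higher and 2.38% called lower. At an unadjusted p under 0.05 without the fold, 10 of the 45 were higher (Col4a1, Col6a2, Col8a1, Col18a1, Lama5, Lamc1, Itga1, Itga5, Itga8 and Itgb1) and 2 lower (Lamb3 and Itgbl1), where all genes gave 6.36% and 6.9%. The 3 OGD arrays all lay above the 3 Ctrl arrays for 13 members and all below for 3, beside 9.05% and 7.55% of all genes. At 7 h only Itgb6 was called higher and only Itgb2, not above background on any array, lower, beside 1.56% and 2.07% of all genes. The same single member was higher at an unadjusted p under 0.05 and 3 were lower (Lamb3, Itgad and Itgb2), beside 3.89% and 8.06%. The groups did not overlap for 2 members above and 5 below, beside 7.58% and 17.9%. In percent of the 45 members, which are few, the counts of 7 h stood near or under these backgrounds, and the counts in the higher direction at 24 h above them.

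**Figure D1:**
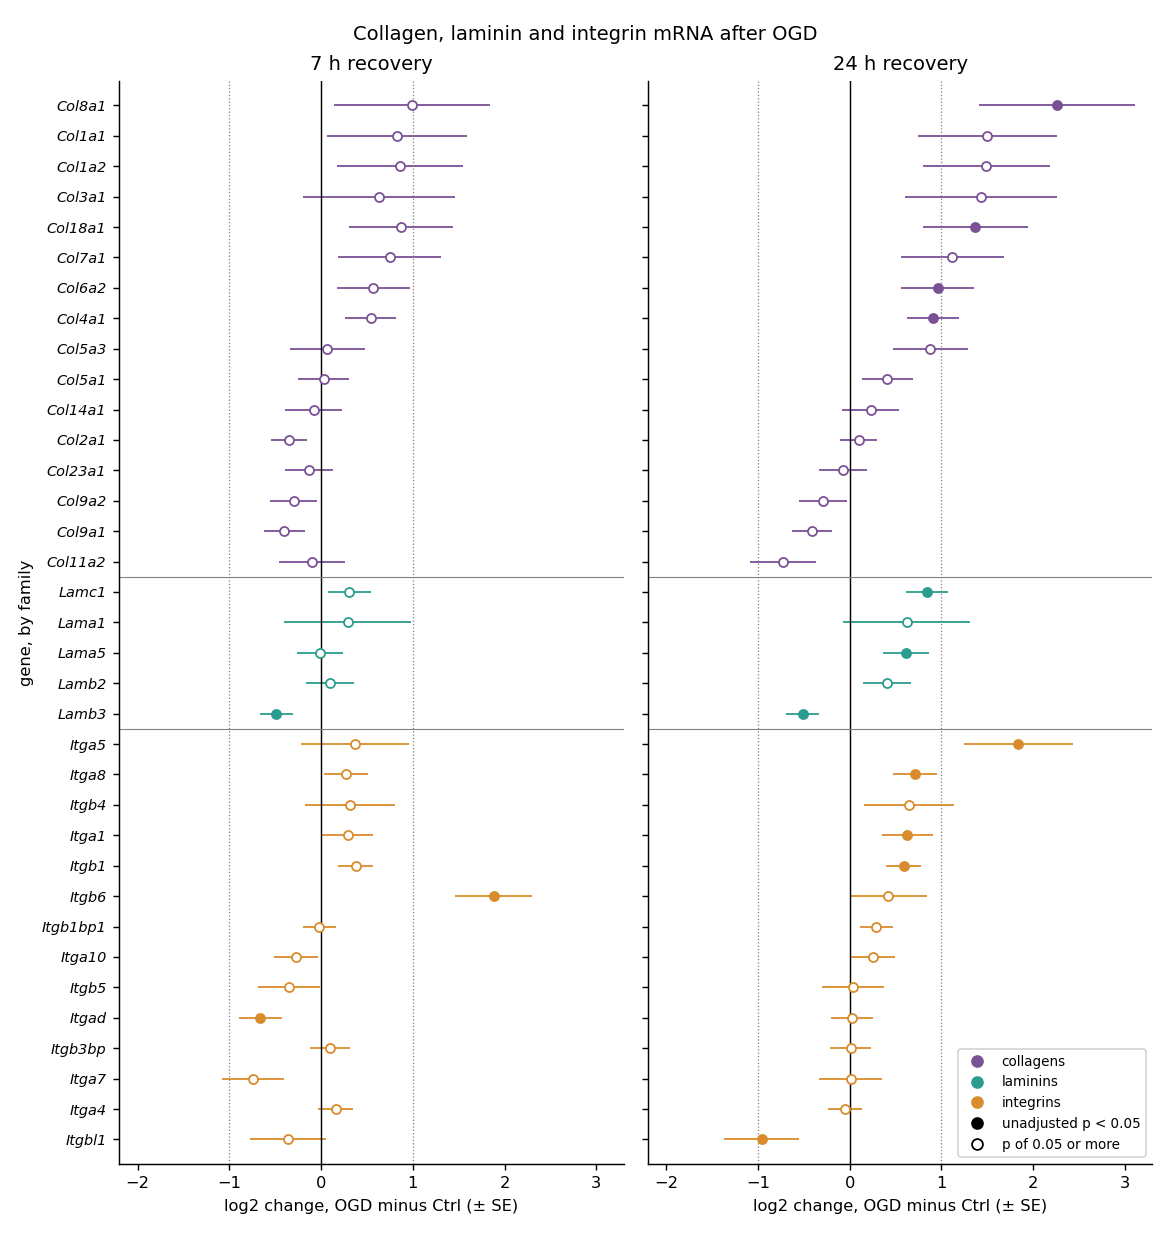
Log2 change (OGD minus Ctrl, median-centred arrays, points with SE from limma) of the 35 genes well above background on at least 6 of the 12 arrays, at 7 h (left) and 24 h (right), ordered within each family by the change at 24 h; filled points have an unadjusted p under 0.05, and dotted lines mark a fold of 2. On this scale 28 of these genes lie above 0 at 24 h and 21 at 7 h; with spike-in scaling the family medians lie below 0.

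Among the collagens the largest difference at 24 h was that of Col8a1, a short-chain network collagen of vessel walls and of the membrane under corneal endothelium. Its Ctrl arrays read -2.47, -1.25 and 0.54 (replicates 1, 2 and 3) and its OGD arrays 1.87, 0.79 and 0.93. All OGD arrays were above all Ctrl arrays, and the Ctrl arrays spread more widely (SD 1.51) than the OGD arrays (SD 0.58). The change was 2.26 ± 0.85 (SE), a 4.78-fold difference (limma adjusted p = 0.313). On the slides of replicates 1, 2 and 3 the OGD array exceeded the Ctrl array by 4.34, 2.05 and 0.39. After 7 h the arrays read -1.89, -0.62 and 1.31 in Ctrl and -0.07, 0.81 and 1.01 after OGD, groups that overlap, and the change of 0.99 ± 0.85 did not pass. The call at 24 h was lost without the Ctrl array of replicate 1 (change 1.55), the Ctrl array of replicate 2 (2.16) or the OGD array of replicate 1 (1.92), where the unadjusted p rose above 0.05. It was also lost by Student's t-test, the test of the study's methods, and with the slides of replicates 2 and 3 alone (1.22).

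Col18a1, the basement membrane collagen whose C-terminal fragment is endostatin, read 1.56, 2.45 and 3.53 in the Ctrl arrays and 3.93, 3.75 and 3.97 in the OGD arrays at 24 h. The OGD arrays lay close together and above all Ctrl arrays, which spread widely. The change was 1.37 ± 0.57, or 2.58-fold (limma adjusted p = 0.34), with differences of 2.37, 1.30 and 0.44 on the slides of replicates 1, 2 and 3. Earlier, after 7 h, Ctrl read 1.41, 2.21 and 3.39 and OGD 2.40, 3.61 and 3.63, a change of 0.87 ± 0.57 that did not pass. The call at 24 h was lost on leaving out any array of that time other than the Ctrl array of replicate 3. The change was 0.89 without the Ctrl array of replicate 1, 1.34 without that of replicate 2, and 1.35, 1.44 and 1.32 without the OGD array of replicate 1, 2 or 3. The methods' t-test, normexp (0.94) and the slides of replicates 2 and 3 alone (0.87) gave no call either.

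Itga5, the alpha chain of the fibronectin receptor that pairs with beta-1, was the third member called at 24 h. Ctrl read -4.34, -2.66 and -1.58 and OGD -0.41, -1.14 and -1.53, so the groups were separate, though the nearest arrays almost met. The Ctrl array of replicate 1 was not well above background. The change was 1.84 ± 0.59, or 3.57-fold (limma adjusted p = 0.29), and the slides gave 3.93, 1.53 and 0.05. The Ctrl arrays of 7 h stood at -1.11, -1.07 and -0.31, higher than those of 24 h, and OGD at -0.71, -0.64 and -0.03, for a change of 0.37 ± 0.59 that did not pass. The call at 24 h was kept on leaving out any 1 array, but it was lost with the slides of replicates 2 and 3 alone (0.79) and by the methods' t-test. With normexp the change did not reach a fold of 2.

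Because these 3 genes were the members called at 24 h, the 250 bases before their start in RefSeq (GRCr8) are shown, in capitals where they hold the SP1 motif GGGCGG or a hypoxia response core, ACGTG or GCGTG, on either strand.
Col18a1, chr20:11473395-11473644, + strand: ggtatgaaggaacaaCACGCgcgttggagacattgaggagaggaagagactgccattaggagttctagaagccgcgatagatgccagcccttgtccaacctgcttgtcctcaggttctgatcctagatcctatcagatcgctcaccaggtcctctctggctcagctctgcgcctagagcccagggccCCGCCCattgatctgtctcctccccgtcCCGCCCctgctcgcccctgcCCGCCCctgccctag
Col8a1, chr11:56246532-56246781, + strand: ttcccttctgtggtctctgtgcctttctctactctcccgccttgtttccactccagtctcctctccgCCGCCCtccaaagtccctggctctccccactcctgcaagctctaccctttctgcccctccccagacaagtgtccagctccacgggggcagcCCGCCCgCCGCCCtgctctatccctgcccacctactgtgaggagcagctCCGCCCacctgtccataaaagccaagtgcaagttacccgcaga
Itga5, chr7:136381306-136381555, - strand: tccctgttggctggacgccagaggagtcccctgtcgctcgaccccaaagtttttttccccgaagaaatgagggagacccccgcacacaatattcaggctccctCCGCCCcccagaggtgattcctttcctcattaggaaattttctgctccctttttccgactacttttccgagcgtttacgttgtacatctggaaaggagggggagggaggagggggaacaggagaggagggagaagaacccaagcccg
All matches read as the reverse complement of the motif on the strand printed. Col8a1 held 4 SP1 matches, Col18a1 3 SP1 matches and 1 hypoxia response core, and Itga5 1 SP1 match. Promoters of 32 members were in the RefSeq table, and 14 of them (43.8%) held GGGCGG, against 32.4% of 27457 promoters of this length. The hypoxia response core was in 10 of the 32 (31.2%, against 37.9%), the AP-1 motif TGANTCA in 0 (against 6.36%) and the TATA box TATAAA in 3 (9.38%, against 13.1%). The strands were both searched and overlaps between motifs kept. Such matches describe letters near a start that another transcript of the gene need not use.

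**Figure D2:**
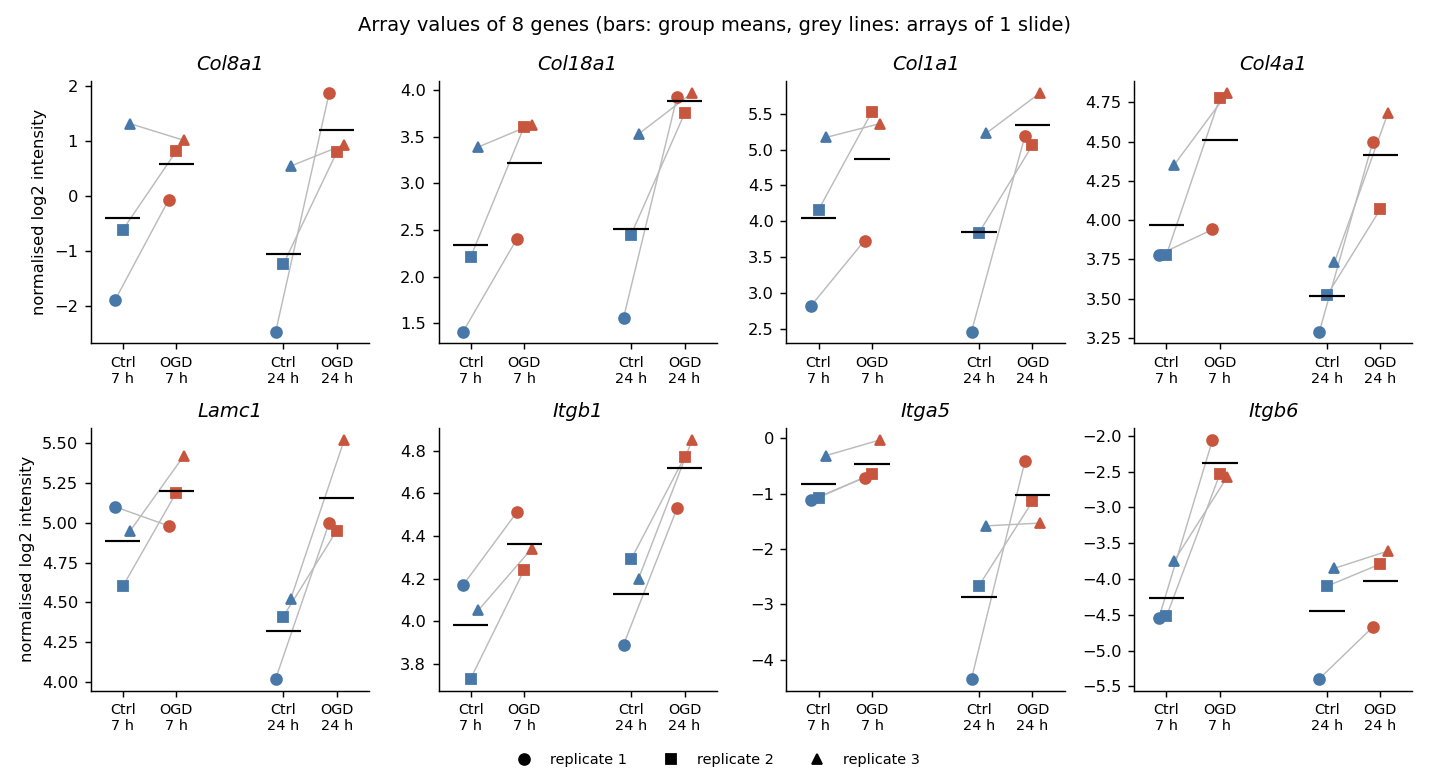
Normalised log2 intensity (array median = 0) of 8 genes on each of the 12 arrays, by group on the horizontal axis, with symbols for replicates 1 to 3, bars for group means and grey lines joining the 2 arrays of a slide. Ctrl arrays of 24 h spread from -2.47 to 0.54 for Col8a1, and from 3.29 to 3.73 for Col4a1; Itgb6 differs at 7 h.

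The fibrillar chains Col1a1 and Col1a2, which together make collagen I, had changes above that of Col18a1 and below those of Col8a1 and Itga5, and did not pass. Col1a1 at 24 h read 2.46, 3.84 and 5.23 in Ctrl and 5.19, 5.06 and 5.79 after OGD, a change of 1.5 ± 0.76 (limma adjusted p = 0.404). A second Col1a1 probe gave 1.02 ± 0.65, below the change of Col18a1, and did not pass. Col1a2 read 3.73, 4.87 and 6.14 against 6.40, 6.01 and 6.81, a change of 1.49 ± 0.69 (adjusted p = 0.372). In both genes the Ctrl array of replicate 3 lay above at least 1 OGD array, and the OGD array was the higher on all 3 slides. Col3a1, the chain of the finer fibrils of vessels, read 1.77, 3.38 and 4.50 against 3.68, 4.48 and 5.78, a change of 1.43 ± 0.83 (adjusted p = 0.453). The within-slide differences were 2.73, 1.22 and 0.56 for Col1a1, 2.67, 1.14 and 0.67 for Col1a2 and 1.91, 1.09 and 1.28 for Col3a1. With the slide as a fixed block these 3 genes and Itgb3 were also called at 24 h, for 7 members instead of 3, and with the slide as a random block 3 were called. The changes at 7 h were 0.83 ± 0.76, 0.86 ± 0.69 and 0.63 ± 0.83, and the slide differences were above 0 on all 3 slides.

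This order of the Ctrl arrays ran through the collagens. At 24 h the Ctrl array of replicate 1 was the lowest of its group for 14 of 18 collagens and that of replicate 3 the highest for 15, and at 7 h the counts were 13 and 15. The summed collagen level of the Ctrl arrays at 24 h was 64.9, 115 and 218 in units of the array's median probe, and of the OGD arrays 241, 227 and 342. Sums at 7 h were 74.4, 119 and 215 in Ctrl and 107, 279 and 247 after OGD. The groups were separate at 24 h and overlapped at 7 h. The 7 fibrillar chains, which made up much of the sum, summed to 32.9 to 151 in Ctrl and 149 to 245 after OGD at 24 h, groups that overlap.

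Among basement membrane and beaded-filament chains, Col4a1 differed at 24 h with little spread. Its Ctrl arrays read 3.29, 3.52 and 3.73 and its OGD arrays 4.50, 4.07 and 4.68, a change of 0.91 ± 0.28, or 1.87-fold (limma adjusted p = 0.285, unadjusted p under 0.05). All OGD arrays were above all Ctrl arrays, on each of the 3 slides by 0.55 or more. A second Col4a1 probe gave 0.76 ± 0.40 and the change at 7 h was 0.54 ± 0.28, neither of which passed. Col6a2, a chain of the beaded filaments around cells, read 3.93, 4.41 and 5.15 in Ctrl and 5.40, 5.36 and 5.59 after OGD at 24 h, a change of 0.96 ± 0.40 (limma adjusted p = 0.334, unadjusted p under 0.05), with all OGD arrays above all Ctrl arrays. It no longer passed on leaving out any 1 array of that time other than the Ctrl array of replicate 3, with changes from 0.67 (without the Ctrl array of replicate 1) to 1.00 (without the OGD array of replicate 2). Col7a1, the anchoring fibril chain, had a change of 1.12 ± 0.56 that did not pass, with an OGD array below the Ctrl array (-0.10) on the slide of replicate 3.

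The remaining collagens differed less. Col5a1 and Col5a3, which join collagen I fibrils, had changes of 0.41 ± 0.28 and 0.88 ± 0.41 at 24 h, and neither passed. The cartilage chains Col2a1, Col9a1, Col9a2 and Col11a2 had changes of 0.10, -0.41, -0.29 and -0.73, and for Col11a2 all OGD arrays lay below all Ctrl arrays (a second probe gave -0.58 ± 0.19, with an unadjusted p under 0.05, and the first did not pass). The FACIT collagen Col14a1 and the transmembrane Col23a1 had changes of 0.23 and -0.07. Col13a1, another transmembrane collagen, was well above background on 2 of the 3 OGD arrays and on no Ctrl array at 24 h. The group mean was at least 1.1-fold higher after OGD, and the fitted change (1.01 ± 0.65) did not pass. Col4a4 was not well above background on any array.

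Of the laminins, Lamc1, the gamma chain of most laminin trimers, differed at 24 h. It read 4.02, 4.41 and 4.52 in Ctrl and 5.00, 4.95 and 5.52 after OGD, a change of 0.84 ± 0.23, or 1.79-fold (limma adjusted p = 0.269, unadjusted p under 0.05). The groups did not overlap, and the OGD array was higher by 0.98, 0.54 and 1.00 on the 3 slides. The second Lamc1 probe gave 0.79 ± 0.39, which did not pass. The values of 7 h were 5.10, 4.6 and 4.95 against 4.98, 5.19 and 5.42, which overlap, with a change of 0.31 ± 0.23.

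Lama5, the alpha chain of vascular and epithelial basement membranes, read 2.42, 2.64 and 2.75 in Ctrl and 3.31, 3.15 and 3.16 after OGD at 24 h, a change of 0.61 ± 0.25 (limma adjusted p = 0.333, unadjusted p under 0.05). The groups were separate, and the change of 7 h was -0.01 ± 0.25. It did not pass on leaving out any 1 array of 24 h other than the Ctrl array of replicate 3, with changes from 0.52 (without the Ctrl array of replicate 1) to 0.64 (without the OGD array of replicate 2). Lamb2, a beta chain of synaptic and vascular laminins, did not pass (0.41 ± 0.26), nor did Lama1 (0.62 ± 0.69). Lamb3, the beta chain of the epidermal laminin of skin, had lower values at both times, each with an unadjusted p under 0.05. Its arrays of 7 h read -0.54, -0.43 and -0.38 in Ctrl and -1.2, -0.69 and -0.94 after OGD, a change of -0.49 ± 0.18 (limma adjusted p = 0.35). At 24 h they read -0.60, -0.46 and -0.75 in Ctrl and -1.30, -0.99 and -1.03 after OGD, a change of -0.51 ± 0.18 (limma adjusted p = 0.307). Neither reached a fold of 2, and the groups did not overlap at either time. At both times Lamb3 did not pass with 75th percentile centring, spike-in scaling, normexp or the slides of replicates 2 and 3 alone. It also did not pass at 7 h without the Ctrl array of replicate 2 or 3 or the OGD array of replicate 1. At 24 h it did not pass without the Ctrl array of replicate 2 or with each time fitted alone. Lamc3, a gamma chain, was well above background on 3 of 12 arrays, and no fold is given.

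Among the integrins, Itgb1, the beta chain that pairs with most collagen, laminin and fibronectin binding alpha chains, read 3.89, 4.29 and 4.2 in Ctrl and 4.53, 4.77 and 4.85 after OGD at 24 h. The groups did not overlap, and the slides gave 0.64, 0.48 and 0.65. The change was 0.59 ± 0.19, or 1.51-fold (limma adjusted p = 0.29, unadjusted p under 0.05), and 0.38 ± 0.19 at 7 h, where it did not pass and the groups were also separate. The second Itgb1 probe had 0.90 ± 0.33 at 7 h, with an unadjusted p under 0.05, and 0.67 ± 0.33 at 24 h, which did not pass.

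Of its alpha partners, Itga8, which binds RGD sequences in nephronectin and other matrix proteins, read 0.21, 0.73 and 0.29 in Ctrl and 0.98, 1.18 and 1.2 after OGD at 24 h, a change of 0.71 ± 0.24 (limma adjusted p = 0.294, unadjusted p under 0.05). It is one of 4 members, with Itgb2, Itgb3 and Itgb6, that the study's own gene tables list from these arrays, so that its presence here is not independent evidence. It did not pass without the Ctrl array of replicate 1 of 24 h (0.61). A second Itga8 probe, well above background on 9 arrays, gave 1.06 ± 0.42 at 7 h and 1.81 ± 0.42 at 24 h, which met the call rule at both times, whereas the brighter probe did not. Itga1, a collagen receptor chain, read 1.44, 1.56 and 2.19 against 2.14, 2.10 and 2.83 at 24 h (0.63 ± 0.28, limma adjusted p = 0.361, unadjusted p under 0.05), with overlapping groups and differences of 0.70, 0.54 and 0.63 within slides. It passed no longer on leaving out any of 8 single arrays, with the smallest change, 0.39, without the OGD array of replicate 3 of 24 h.

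Itga7, a laminin receptor chain, had a change of -0.74 ± 0.34 at 7 h (limma adjusted p = 0.423), with the OGD array lower on all 3 slides, and of 0.01 ± 0.34 at 24 h. Itgb4 and Itgb5, the beta chains of an epithelial laminin receptor and a vitronectin receptor, had changes of 0.65 ± 0.49 and 0.04 ± 0.34 at 24 h. The collagen receptor chain Itga10 and the leukocyte chain Itga4 had changes of 0.25 and -0.05. None of these 5 passed at either time in the main fit, though Itgb4 passed at 24 h with the slide as a fixed block. For Itga7 at 7 h the unadjusted p was just above 0.05, and all OGD arrays lay below all Ctrl arrays. It passed there in both block fits, with quantile normalisation, dim probes left out, the mean over probes and each time alone. It also passed on leaving out some single arrays of either time, but not others. It did not pass with 75th percentile centring, spike-in scaling, normexp, the authors' values, the methods' t-test or the slides of replicates 2 and 3.

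Itgb6, the beta chain of the epithelial integrin alpha-v beta-6 that activates latent TGF-beta, was the member called higher at 7 h. Ctrl read -4.54, -4.52 and -3.75 and OGD -2.06, -2.53 and -2.57, with the probe well above background on 1 of 3 Ctrl and 3 of 3 OGD arrays. The groups were separate and every slide gave a higher OGD array, by 2.48, 1.99 and 1.18. The change was 1.88 ± 0.42, or 3.68-fold (limma adjusted p = 0.215), and the call was kept on leaving out any 1 array. At 24 h Ctrl read -5.39, -4.10 and -3.85 and OGD -4.67, -3.79 and -3.61, groups that overlap, with a change of 0.42 ± 0.42 that did not pass. The Itgb6 level is low on these arrays at all times. The study also measured Itgb6 by qPCR. It states of the genes so tested, without naming them, that most changed in the direction seen on the arrays.

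Several members were at or near background. Itgb2, the leukocyte beta chain, met the call rule at 7 h, but it was not well above background on any of the 12 arrays. Its change and fold in the main fit are therefore not given. Its difference between times and its value with normexp, given below, rest on the same background signal. Itgb3, a platelet and vascular chain, was well above background on 2 of 3 OGD arrays and on no Ctrl array at 24 h, at least 1.55-fold higher after OGD (fitted change 1.71 ± 0.83, limma adjusted p = 0.391). For Itgae the same bound at 24 h was 1.05-fold higher after OGD, and the fitted change (0.65 ± 0.54) did not pass. Itgb7 and Itgal allow no fold. Itgad, well above background on 3 Ctrl and 1 OGD array at 7 h, had a change of -0.66 ± 0.23 (limma adjusted p = 0.322, unadjusted p under 0.05) there and 0.03 at 24 h. The bound divides the mean of the brighter group by that of the dimmer, with each dim array set to the lowest signal well above background. It takes no account of the spread between arrays.

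Of the 4 proteins with integrin names that are not chains, Itgbl1, a secreted protein with integrin-like EGF repeats, read 3.44, 2.66 and 2.34 in Ctrl and 0.90, 2.31 and 2.36 after OGD at 24 h (-0.96 ± 0.41, limma adjusted p = 0.351, unadjusted p under 0.05). The difference rested on the slide of replicate 1 (-2.54), since the slides of replicates 2 and 3 gave -0.35 and 0.02. Itgb1bp1, which binds the beta-1 tail, had a change of 0.29 ± 0.18 with the OGD arrays all higher. Itgb1bp2 and Itgb3bp had changes of -0.32 and 0.01.

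The response differed between 24 h and 7 h, at an unadjusted interaction p under 0.05, for 4 of the 45 members beside 3.42% of all named genes. These were Itgb6, with a difference of changes (24 h minus 7 h) of -1.46 ± 0.60, Itgb2 (1.37 ± 0.40), Itgb7 (1.56 ± 0.67) and Col13a1 (2.06 ± 0.92), each with an adjusted limma p of 1. Of these, Itgb6 was well above background on 8 arrays and the other genes on 3 or fewer. Itgb7 and Col13a1 no longer passed without the Ctrl array of replicate 3 at 7 h. Itgb6 no longer passed without the OGD array of replicate 1 at 7 h or the Ctrl array of replicate 2 at 24 h. For Col8a1, Col18a1, Itga5, Col4a1, Lamc1 and Itgb1 the difference did not pass, so a larger change at 24 h than at 7 h was not shown for them.

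Within slides, on median-centred arrays, the collagen and integrin medians were above 0 on all 3 slides of 24 h and the laminin median on those of replicates 1 and 2. The median difference of the collagens was 1.34, 0.67 and 0.41 on the slides of replicates 1, 2 and 3, and that of all 45 members 0.70, 0.44 and 0.36, with the OGD array higher on all 3 slides for 26 members (57.8%, where all named genes gave 17.8%). The slides of 7 h gave 0.25, 0.27 and -0.07 over all members, and 14 members were higher on all 3 (31.1%, against 20.1%). Leaving out 1 array at a time moved the number called higher at 24 h between 1 and 10: only Itga5 remained called without the Ctrl or the OGD array of replicate 1, and 10 were called without the Ctrl array of replicate 3. At 7 h the number ran from 1 to 4, the latter without the Ctrl array of replicate 3. With the slides of replicates 2 and 3 alone no member was called higher at 24 h, and 4 were higher at an unadjusted p under 0.05.

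**Figure D3:**
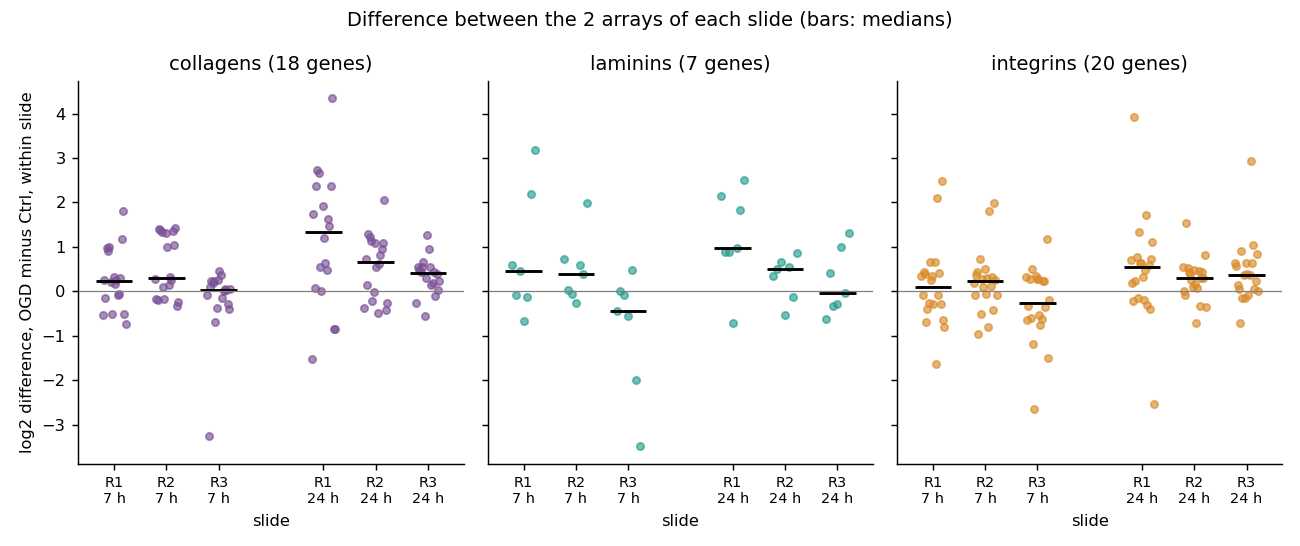
Log2 difference between the OGD and the Ctrl array of each slide (median-centred), 1 point for each gene and a bar for the median, by family and slide. Collagen medians are 1.34, 0.67 and 0.41 at 24 h and 0.23, 0.31 and 0.04 at 7 h, all above 0 on this scale. With spike-in scaling the fitted collagen medians lie below 0 (-0.13 at 24 h and -0.64 at 7 h), and those of single slides were not computed.

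Genes that build or bind the same matrix were counted from lists drawn from general knowledge. The same count over all named genes was 6.36% higher and 6.9% lower at 24 h, and 3.89% and 8.06% at 7 h. Of 21 collagen maturation enzymes with a probe, 9 were higher and none lower at 24 h by an unadjusted p under 0.05, and 2 were higher and none lower after 7 h, and the median change at 24 h was 0.47. The 3 called at 24 h were P3h2, a prolyl 3-hydroxylase (1.65 ± 0.57), Loxl2, which cross-links collagen IV (1.47 ± 0.52), and P4ha3, a prolyl 4-hydroxylase subunit (1.22 ± 0.33). Of all named genes 2.74% were called higher at that time. P3h2 was well above background on 1 of 3 Ctrl and 3 of 3 OGD arrays at 24 h. Of 30 basement membrane and matrix glycoproteins, 6 passed in the higher and 2 in the lower direction at 24 h, where 7 h gave 5 and 1. Postn, a collagen-binding secreted protein, had the largest change of this list, from -3.65, -3.35 and -4.12 to 0.44, -1.30 and -1.65 at 24 h (2.87 ± 0.51). Fn1, the fibronectin bound by the receptor that holds Itga5, read 3.27, 3.76 and 4.81 against 5.66, 4.90 and 5.70 (1.47 ± 0.43). Nid2 and Bgn were also called higher at 24 h (1.17 and 1.14), and Fbln5 and Hapln1, a link protein of perineuronal nets, lower (-1.09 and -1.27). At 7 h Postn (1.19 ± 0.51) and Fbn2 (1.07) were called higher and Acan, the aggrecan of those nets, lower (-1.49). Postn was well above background on 2 of 3 Ctrl and 3 of 3 OGD arrays at 7 h.

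Among 12 other matrix receptors, 3 were higher at 24 h and none lower, and Cd44, the hyaluronan receptor, was called (3.02, 4.11 and 4.11 in Ctrl, 5.90, 4.84 and 5.34 after OGD, a change of 1.61 ± 0.36). Cd36, a thrombospondin and collagen receptor, was called lower at 7 h (-1.12 ± 0.47). Of 26 genes of the integrin adhesion machinery, 4 passed as higher and 2 as lower at 24 h, with 1 and 3 after 7 h. Tln1, the talin that activates integrins, had a change of 0.95 ± 0.26, Fermt2, its partner kindlin-2, 0.58 ± 0.17, and Fermt3, the kindlin of blood cells, was called (1.05 ± 0.30). Ptk2b, a focal adhesion kinase family member abundant in neurons, was called lower at 24 h (-1.18 ± 0.37), and Lims2, an adapter of the integrin-linked kinase complex, at 7 h (-1.36 ± 0.31).

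Of 18 mural cell and fibroblast markers, 11 had a change above 0 and 7 below it at 24 h, with a median of 0.29 on the median-centred scale. The summed level of these mural cell and fibroblast markers was 39.7 to 70.5 in the Ctrl arrays and 75.5 to 132 in the OGD arrays at 24 h, groups that did not overlap, and 29.5 to 43.5 against 36.1 to 52.7 at 7 h. Of this sum Mgp, a calcification inhibitor of vessel walls and cartilage, made up 9.78 to 20.1 in Ctrl and 37.8 to 104 after OGD at 24 h. The other 17 markers summed to 29.9 to 50.4 in Ctrl and 28.1 to 61.8 after OGD at 24 h, groups that overlap. Of these markers 3 were called higher at 24 h, Mgp (1.95 ± 0.44), Pdgfrb (1.34 ± 0.38) and Kcnj8 (1.30 ± 0.47), beside 2.74% of all named genes. Thy1, which neurons also express, was called lower, beside 2.38% of all named genes. Kcnj8 was well above background on 1 of 3 Ctrl and 2 of 3 OGD arrays at 24 h. The smooth muscle markers Acta2 and Myh11 had changes of -0.27 and -0.02 and the fibroblast markers Dcn and Lum of -0.73 and 0.32, all 4 with a p of 0.05 or more. In the Ctrl arrays of 24 h the mural and fibroblast sum was lowest on replicate 1 and highest on replicate 3, as was the collagen sum. Several of these genes (Vtn, Dcn, Lum and Fbln1) are also in the glycoprotein list.

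The neuron markers were lower at 24 h after OGD, where all 17 had a change below 0. Of these, 9 passed an unadjusted p under 0.05, beside 6.9% of all named genes lower by that rule. Their sum was 992 to 1360 in Ctrl and 552 to 973 after OGD. Their median difference within slides was -1.34, -0.36 and -0.07 for replicates 1, 2 and 3. It was thus largest on the slide of replicate 1 and near 0 on that of replicate 3. The 13 endothelial markers with a probe summed to 5.42 to 8.09 and 4.63 to 6.71, and the 12 astrocyte markers to 1000 to 1200 and 926 to 1280, groups that overlap. Microglia markers summed to 62.1 to 75 and 63.8 to 101, and those of the oligodendrocyte lineage to 263 to 362 and 319 to 493. The part of these cell types in the collagen, laminin and integrin values was not tested.

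**Figure D4:**
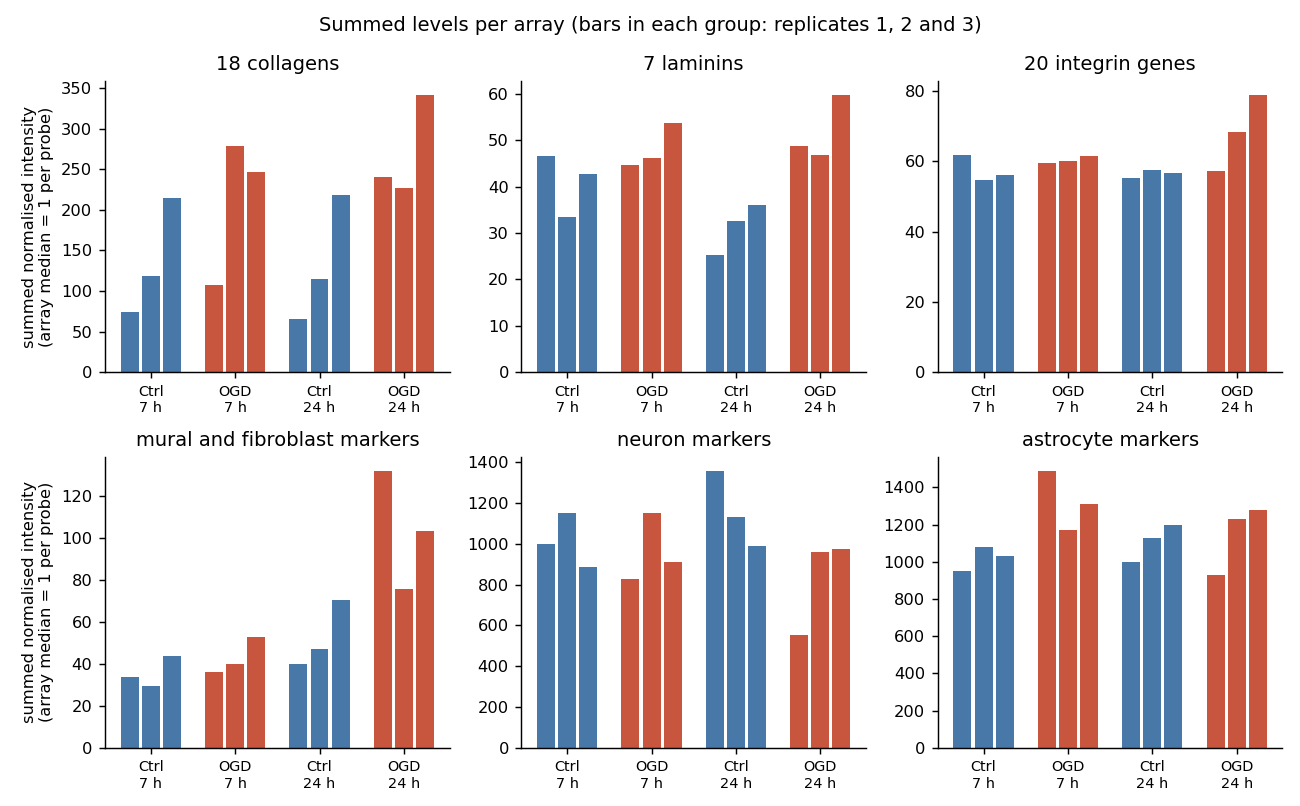
Summed normalised intensity (array median = 1 for each probe) of the 3 families and of 3 lists of cell markers on each array, with bars for replicates 1, 2 and 3 of each group. At 24 h the collagens (64.9 to 218 in Ctrl, 227 to 342 after OGD) and the mural and fibroblast markers (39.7 to 70.5, 75.5 to 132) do not overlap between groups, though the latter overlap when Mgp is left out (29.9 to 50.4, 28.1 to 61.8). Within the collagens, the sums of the 7 fibrillar chains overlap (32.9 to 151, 149 to 245). The neuron markers are lower after OGD at 24 h, with the largest difference on replicate 1.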

How the data were processed

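The authors labelled RNA with Cy3, hybridised 1 culture per one-colour Agilent rat array and read it with Feature Extraction. The deposited intensity values are that software's background-subtracted signal of each spot. The authors also deposited log2 values, which for 99.92% to 100% of probes equalled the log2 intensities, within 0.01, up to 1 constant per array. The probes were designed on rat build rn4, whose coordinates were not used.

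Spots marked as non-uniform or as population outliers were not used. The log2 intensities of the others were averaged per probe and centred on the array's median. Probes (30367, of which 18004 were named) were named by accession through RefSeq. The 4 groups were fitted with limma 3.58.1 in R 4.3.3, with two-sided p-values adjusted by Benjamini-Hochberg over all probes. The procedure was tested on simulated data. No intensity filter was used. The number of arrays limits the precision.

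The members and gene lists were chosen with earlier results of these data known. Genes named by rule were those called, the brightest member of each structural class, members in the study's gene tables, a short list of common chains and the called genes of the matrix lists; further members were named after their values were seen. Alternatives were other centrings, quantile normalisation, spike-in scaling, normexp (on median spot signals, since mean signals were not used here), dim probes left out, the authors' values, the mean over probes, the slide as a block, each time alone, the methods' t-test, leaving out each array, and, chosen after seeing the data, the slides of replicates 2 and 3 only and the mural marker sum without Mgp. The single values of 1 member are not reported here.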

Additional observations from a re-analysis of the deposited data

Results flagged for a closer look

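For 4 genes the change after OGD differed between 24 h and 7 h at an unadjusted limma interaction p under 0.05 (3.42% of all named genes did). The difference of changes, 24 h minus 7 h, was -1.46 for Itgb6, 1.37 for Itgb2, 1.56 for Itgb7 and 2.06 for Col13a1. The adjusted limma p was 1 for all of them. Of the 12 arrays, Itgb2 was well above background on 0, Itgb7 on 2 and Col13a1 on 3. Without the Ctrl array of replicate 3 at 7 h only Itgb2 and Itgb6 remained.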

How the results depend on the processing

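Counts of members called higher at 24 h (3 as reported) were 5 with 75th percentile centring or quantile normalisation. They were 7 with the slide as a fixed block or each time alone, and 0 with spike-in scaling or the slides of replicates 2 and 3 only. Normexp called only Col8a1, and the methods' t-test only Itgb3. The t-test thus called none of the 3 reported members. Called higher at 7 h (1 as reported) were 0 with spike-in scaling and 2 with normexp. Called lower at 7 h (1 as reported) were 0 with 75th percentile centring, quantile normalisation, spike-in scaling, normexp or dim probes left out. At an unadjusted p under 0.05, higher at 24 h (10 as reported) gave 17 with the fixed block, 6 with the t-test, 4 with those slides, 2 with normexp and 0 with spike-in scaling; higher at 7 h (1 as reported) gave 3 with those slides or the mean over probes, 2 with 75th percentile centring, quantile normalisation or normexp and 0 with spike-in scaling. Lower at 7 h (3 as reported) gave 1 with 75th percentile centring and 0 with spike-in scaling or normexp, and lower at 24 h (2 as reported) gave 1 with 75th percentile centring, the fixed block or the t-test and 0 with spike-in scaling, normexp, each time alone or those slides. The interaction count (4 as reported) was 2 with 75th percentile centring, quantile normalisation, dim probes left out or those slides, and 0 with spike-in scaling or normexp.

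With spike-in scaling, which rests on 1 usable spike-in probe, the family medians at 7 h and 24 h were -0.64 and -0.13 (collagens), -0.62 and -0.42 (laminins) and -0.69 and -0.72 (integrins), and Col4a1 (-0.12), Col6a2 (-0.07), Itga1 (-0.40), Itga8 (-0.31), Itgb1 (-0.43), Lama5 (-0.42) and Lamc1 (-0.19) turned below 0 at 24 h. The laminin median at 7 h was -0.13 with normexp and -0.08 with the slides of replicates 2 and 3, the integrin median at 24 h 0.13 with quantile normalisation and 0.45 with normexp, the collagen median at 7 h 0.31 with dim probes left out, and Itgb2 at 7 h 0.75 with normexp. Col4a1, Lamc1 and Itgb1 did not pass at 24 h with normexp (0.44, 0.41 and 0.17). The cause of these changes was not tested.

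Leaving out each array in turn gave 1 to 4 members called higher and 0 to 2 lower at 7 h, 1 to 10 and 0 to 1 at 24 h; at an unadjusted p under 0.05, 1 to 5 higher and 1 to 4 lower at 7 h, 4 to 16 and 0 to 3 at 24 h; 2 to 5 with an interaction; and medians of 0.12 to 0.24 and 0.48 to 1.1 for collagens, -0.18 to 0.35 and 0.48 to 0.68 for laminins and 0.02 to 0.12 and 0.23 to 0.39 for integrins at 7 h and 24 h. Of 1148 alternative values of the 48 named changes, 1040 kept their side of an unadjusted p of 0.05. These include values that changed direction where neither p was under 0.05. Another 54 lost an unadjusted p under 0.05, 46 gained it, and 8 changed direction where a p was under 0.05. Most of the 48 changes did not pass in the main fit, and the 54 and the 8 all belong to those that did. The total of 1040 therefore says little about how stable the passing changes were. Lamb3, Itgad and Itgbl1, which passed, are not among the 48.

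Same-numbered arrays of a time, which share a slide, were paired in the slide-block fits and in the within-slide differences, not in the main fit. Their deviations correlated at 0.04, 0.38 and 0.24 at 7 h and -0.09, 0.16 and -0.13 at 24 h over 10906 genes. Ctrl and OGD arrays of different numbers gave -0.28 to 0.02 at 7 h and -0.24 to 0.22 at 24 h. At 24 h same-numbered arrays were thus no more alike than others. The fixed block moved the counts as given above (7 called, 17 at p under 0.05). The slide as a random block left 3 called and 10 at p under 0.05. Signal over background limits 13 of the 45 members, which were not well above background on every array.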
